A study of Homo sapiens with 2 samples.

Results

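The nuclear genes of the mitochondrial respiratory chain and of its ATP synthase, with the factors that assemble them, were followed in Huh7 cells, an established line from a human hepatocellular carcinoma, after knockdown of CD24, a small glycoprotein of the cell surface. Members were taken from the annotation of the array by symbol prefix (NDUF, UQCR, COX4 to COX8, COX10 to COX19, ATP5, SDHA to SDHD) plus CYC1 and CYCS, using probe sets that name 1 gene each. The rule found 99 protein-coding genes on 193 probe sets, among 19775 genes on 41091 probe sets with 1 symbol, and 6 non-coding loci on 7 probe sets that share a prefix. A further 21 probe sets pair a matching symbol with other genes, among them those of NDUFS5, NDUFS8, NDUFC2 and UQCRH, and gave no value. Both cultures had received a lentiviral vector that was stably integrated, one coding for a short hairpin RNA against CD24 (the CD24 shRNA array) and the other for a non-target hairpin (the control array), and grew in the same serum-containing medium. Total RNA of each was measured on 1 Affymetrix array. The labels name neither the number of hairpins nor whether the transduced cells were a pool or a clone.

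Cells make most of their ATP in this chain. Complex I (NADH dehydrogenase) and complex II (succinate dehydrogenase) pass electrons to ubiquinone, complex III passes them to cytochrome c, complex IV (cytochrome c oxidase) passes them to oxygen, and the proton gradient built on the way drives complex V, the ATP synthase. Apart from a few core subunits encoded by mitochondrial DNA, the proteins are encoded in the nucleus and need dedicated assembly factors that insert haem, copper and iron-sulfur clusters. Several small complex IV subunits exist as isoforms, one used widely and another in muscle, lung, testis or under low oxygen.

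The quantity given throughout is a log2 difference, CD24 shRNA minus control. The deposited table subtracts from each probe set the mean of its 2 arrays, so it holds no expression level and the values of both arrays mirror each other. A gene is given the mean over its probe sets, with the SD over them as error, which says how well probe sets of 1 gene agree and nothing about how separate cultures vary. With 1 array per group no difference here has a replicate check and no p-value exists. Across all genes with several probe sets the pooled SD was 0.27, and across the members 0.21. A 1.5-fold difference, 0.585 on the log2 scale, was taken as the threshold for a call. CD24 itself lay at -1.37 ± 0.38 (SD, 6 probe sets). The median of all genes was 0.00, and the 18 probe sets of the hybridisation controls had a median of -0.11 (range -0.23 to 0.08). Scaling the arrays on those controls adds 0.11 to every gene, the median of all genes included, so values are to be read relative to that median. The 5-prime minus 3-prime contrast of the control probe sets, which follows RNA integrity, was -0.09 for GAPDH and 0.76 for ACTB, and its part in the results was not tested. Whether hepatocyte markers are present cannot be read from a table without levels. Of 10 measured, 7 were below 0, and 5 on the hybridisation controls, against 9402 and 5663 of all 19775 genes. They ran from TF at -0.45 to FGB at 0.59 ± 0.02 (SD, 2 probe sets). FGB was called higher in both settings, as 521 and 810 of all genes were. Of 15 measured markers of stellate, endothelial and immune cells, 1 was called higher, where 2.63% of all genes were, and their median was -0.04 (range from -0.37). The one called was LUM, at 1.12 ± 1.41 (SD, 2 probe sets at 2.12 and 0.13). Both LUM probe sets had a sign of a log2 level below 4 in the dimmer array. In bulk RNA, fewer cells of a type and less RNA per cell cannot be told apart.

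The respiratory chain as a whole lay close to the median of all genes. Of the 99 members, 53 were below 0, 43 above 0 and 3 tied between the arrays, against 47.5% of all genes below 0 and 49.4% above. Scaled on the hybridisation controls, 26 of the 99 were below 0, against 5663 of all 19775 genes. The median of all genes moved as far as that of the members. The median of the members was -0.02, and 81 of the 99 lay within 0.2 of 0, which is 81.8% against 64.1% of all genes. The SD over genes was 0.17 for the members and 0.30 for all genes. For the cytosolic and the mitochondrial ribosomal proteins the SD was 0.16 and 0.21, with 73.8% and 74.7% within 0.2 of 0. A spread below that of all genes was thus not particular to the respiratory chain. Members and all genes were also restricted to probe sets for which no sign of a log2 level below 8 was found. The SD was then 0.17 over 86 members and 0.34 over 10837 genes. At the 1.5-fold threshold 1 member was called higher, where 2.63% of all genes were, and 0 members lower, where 2.38% were. Among all genes this was 521 higher and 470 lower, and on the hybridisation controls 810 higher and 302 lower, with the same counts of members. At 1.2-fold 6 members were higher (COX7C, UQCRQ, ATP5F1B, COX10, COX7B2 and SDHAF2; all genes 12.6%) and 4 lower (SDHAF1, NDUFS1, NDUFAF4 and SDHAF4; all genes 12.2%). COX7A2L, at -0.26, lay just short of 1.2-fold. No member reached 2-fold, as 0.632% of all genes did upward and 0.485% downward.

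**Figure D1:**
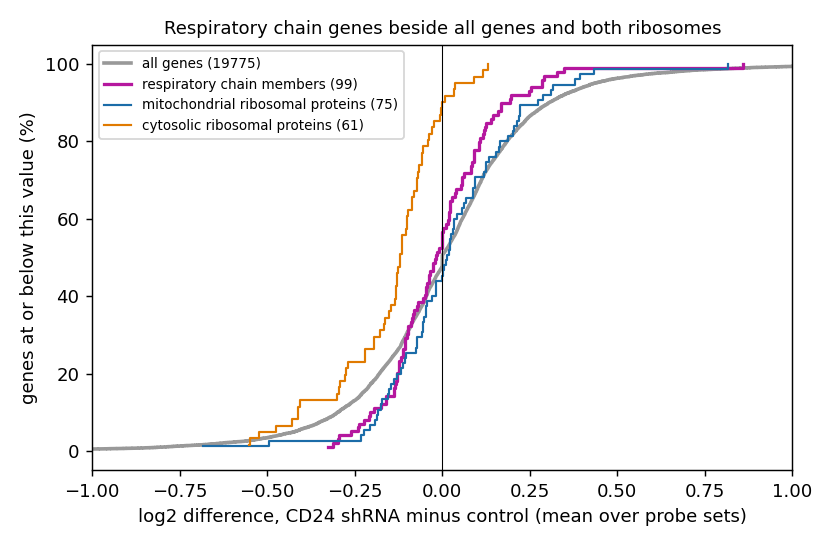
Cumulative share of genes (y axis, percent) at or below each log2 difference, CD24 shRNA minus control (x axis), for all 19775 genes, the 99 respiratory chain members, 75 mitochondrial ribosomal proteins and 61 cytosolic ribosomal proteins. The curve of the members is steeper than that of all genes and crosses 0 near the middle (median -0.02), apart from 1 gene at 0.86, while the cytosolic ribosomal proteins lie to its left (median -0.12 as deposited, -0.01 when scaled on the hybridisation controls).

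The member furthest from 0 was COX7C, a small subunit of complex IV that spans the inner membrane. Its centred values were -0.43 in control cells and 0.43 with CD24 shRNA, a log2 difference of 0.86 ± 0.06 (SD, 3 probe sets), or 1.81-fold higher. The 3 probe sets lay at 0.92, 0.85 and 0.81, each past the threshold, and 0.755% of the 2780 genes with 3 probe sets had all of them at least 1.5-fold higher. The probe set at 0.85 is the one whose name does not end in _s_at or _x_at, endings that mark probe sets able to match more than 1 transcript, and it had a sign of a log2 level below 8 in the dimmer array. Of the 19775 genes, 206 stood higher than COX7C. The nearest genes on either side of COX7C that had a value were EDIL3 at 0.09 ± 0.08 (SD, 3 probe sets) and CCNH at -0.15 (1 probe set), neither past the threshold. UQCRQ of complex III and ATP5F1B of complex V came next among the members, at 0.35 and 0.33, each on 1 probe set.

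Promoters are shown for the members at the ends of the range, since these carry the largest differences: COX7C and UQCRQ (the highest subunits), NDUFS1 (the lowest subunit), COX10 (the highest assembly factor) and SDHAF1 (the lowest of all). Each sequence is from RefSeq on GRCh38.p14, runs from 250 bases before to 50 after the annotated start, and is written on the strand of the gene. Capitals mark letters that match a motif of regulators of respiratory genes, in either orientation: GCGCA, any base and GCGC for NRF1, CCGGAAG for the ETS factor GABPA (also called NRF2 in this field) and AAGATGGC for YY1, with ACGTGC, which hypoxia-inducible factors can bind, searched as well. COX7C is on the plus strand at chr5:86617691-86617990, UQCRQ on the plus strand at chr5:132866392-132866691, NDUFS1 on the minus strand at chr2:206159395-206159694, COX10 on the plus strand at chr17:14069254-14069553 and SDHAF1 on the plus strand at chr19:35994938-35995237.
COX7C: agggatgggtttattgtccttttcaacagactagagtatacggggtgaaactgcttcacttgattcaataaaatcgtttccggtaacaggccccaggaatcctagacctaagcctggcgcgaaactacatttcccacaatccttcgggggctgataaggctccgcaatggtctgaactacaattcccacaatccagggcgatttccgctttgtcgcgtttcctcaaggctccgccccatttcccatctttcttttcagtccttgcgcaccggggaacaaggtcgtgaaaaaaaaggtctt
UQCRQ: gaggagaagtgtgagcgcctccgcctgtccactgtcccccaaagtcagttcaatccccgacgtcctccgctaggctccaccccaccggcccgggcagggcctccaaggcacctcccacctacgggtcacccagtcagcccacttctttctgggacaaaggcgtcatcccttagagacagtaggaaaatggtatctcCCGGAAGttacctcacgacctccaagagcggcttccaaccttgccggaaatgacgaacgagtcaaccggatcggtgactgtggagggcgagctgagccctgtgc
NDUFS1: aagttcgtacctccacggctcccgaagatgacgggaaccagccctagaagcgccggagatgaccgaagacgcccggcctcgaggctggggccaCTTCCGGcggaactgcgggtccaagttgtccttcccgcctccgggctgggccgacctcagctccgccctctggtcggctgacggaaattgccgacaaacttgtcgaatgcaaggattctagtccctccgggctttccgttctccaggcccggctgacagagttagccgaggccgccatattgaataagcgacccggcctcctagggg
COX10: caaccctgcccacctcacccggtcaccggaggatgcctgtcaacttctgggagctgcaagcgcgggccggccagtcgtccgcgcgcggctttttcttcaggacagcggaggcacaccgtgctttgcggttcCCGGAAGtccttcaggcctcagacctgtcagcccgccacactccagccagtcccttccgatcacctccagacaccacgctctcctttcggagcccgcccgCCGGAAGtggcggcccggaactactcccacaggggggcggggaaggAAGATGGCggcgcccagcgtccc
SDHAF1: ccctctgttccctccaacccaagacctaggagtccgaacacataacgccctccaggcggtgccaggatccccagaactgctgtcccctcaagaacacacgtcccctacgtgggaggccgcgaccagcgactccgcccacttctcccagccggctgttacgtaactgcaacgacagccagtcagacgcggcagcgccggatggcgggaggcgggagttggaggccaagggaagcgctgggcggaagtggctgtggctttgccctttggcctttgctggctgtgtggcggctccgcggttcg

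None of the 4 spellings occurs in the COX7C or the SDHAF1 window. UQCRQ holds 1 ETS match, which begins 54 bases before the start, and NDUFS1 holds 1, on the opposite strand, 157 bases before. COX10 holds 2 ETS matches, 119 and 19 bases before the start, and 1 YY1 match 27 bases after it. Of the 99 members, 85 matched a promoter in the table. The NRF1 spelling occurred in 21 of these 85 (24.7%, against 6.28% of all 27305 promoters), the ETS spelling in 24 (28.2% against 10.7%), the YY1 spelling in 11 (12.9% against 3.03%) and the ACGTGC spelling in 10 (11.8% against 6.87%). Members with and without a match had like medians: -0.02 and -0.01 for NRF1, 0.00 and -0.04 for ETS, 0.00 and -0.02 for YY1, and -0.02 and -0.01 for ACGTGC. A match is a run of letters, and binding was not measured.

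Complex I was centred on 0. Of 33 measured subunits 18 were below and 15 above 0, the median was -0.01, 30 lay within 0.2 of 0, and none was called. With the arrays scaled on the hybridisation controls 6 of the 33 were below 0, against 5663 of 19775 genes. NDUFS1, a core subunit that carries iron-sulfur clusters, was the lowest, at centred values of 0.16 in control cells and -0.16 with CD24 shRNA. Its difference of -0.31 ± 0.37 (SD, 5 probe sets) was smaller than the spread of its probe sets, which lay at 0.09, -0.07, -0.17, -0.64 and -0.77. The 2 lowest of these were the 2 with a sign of a low level, below 8 and below 4 on the log2 scale in the dimmer array, and the other 3 averaged closer to 0. NDUFB2, an accessory subunit of the membrane arm, was the highest at 0.25 ± 0.29 (SD, 3 probe sets), with probe sets at 0.04, 0.13 and 0.58. The remaining core subunits lay at -0.11 (NDUFV1, which binds NADH), -0.001 (NDUFS3), 0.08 (NDUFV2) and 0.10 (NDUFS7). The 14 subunits of the peripheral arm, which takes up electrons, had a median of 0.03. The 18 of the membrane arm, the arm that pumps protons, were all accessory subunits and had a median of -0.03. NDUFAB1, the mitochondrial acyl carrier protein found in both arms, was at -0.11 on 1 probe set. NDUFA13, also known as GRIM-19, was at 0.20 on 1 probe set, and NDUFB7 at -0.24 ± 0.32 (SD, 2 probe sets). NDUFA10 had the widest spread of all members, with probe sets at 0.54, 0.21, 0.00, -0.01 and -0.65 around a mean of 0.02. Its 2 extreme probe sets were both placed below a log2 level of 4.

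The 8 complex I assembly factors had a median of -0.06 (0.05 on the hybridisation controls), with 5 below 0, 2 above and NDUFAF1 tied. NDUFAF4 was the lowest, at -0.30 ± 0.24 (SD, 2 probe sets at -0.13 and -0.47), and NDUFAF3 the highest, at 0.14 on 1 probe set. NDUFAF7, a methyltransferase that modifies a core subunit, was at -0.21 ± 0.31 (SD, 3 probe sets), with 1 probe set above 0. NDUFAF2 and NDUFAF5 lay at -0.13 and -0.08, NDUFAF6 at -0.05 and NDUFAF8 at 0.05, so that only NDUFAF4 was beyond 1.2-fold.

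**Figure D2:**
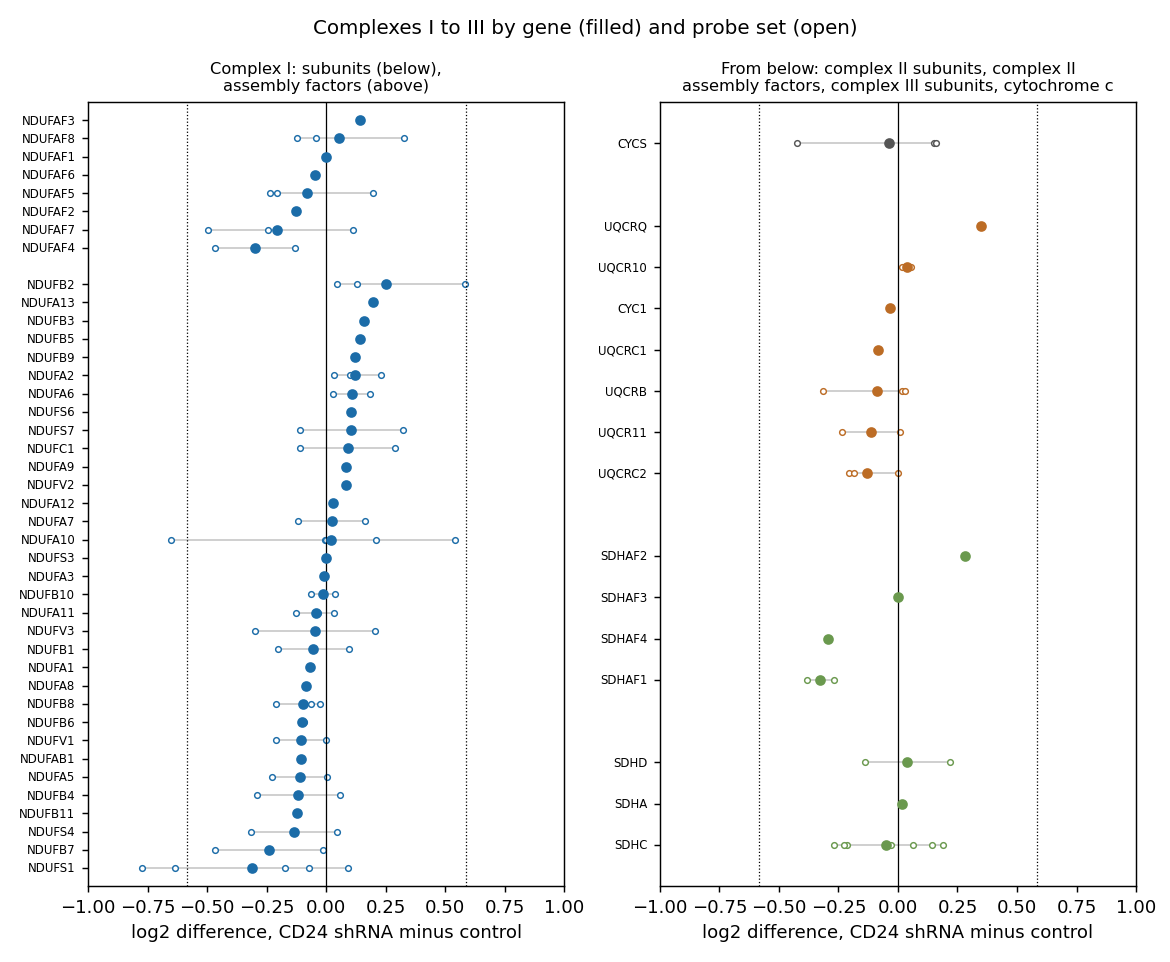
Log2 difference, CD24 shRNA minus control (x axis), of each measured gene of complexes I, II and III and cytochrome c (y axis); open circles are probe sets, filled circles their mean, grey lines the range of the probe sets, and dotted lines 1.5-fold. Filled circles run from -0.33 (SDHAF1) to 0.35 (UQCRQ) and none reaches a dotted line; on the hybridisation controls all would shift by 0.11 to the right.

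Complex II, which also serves the citric acid cycle, gave 3 subunits with values near 0, and its subunit SDHB gave no value. SDHA, the flavoprotein that oxidises succinate, was at 0.02 on 1 probe set, SDHD, a membrane anchor, at 0.04 ± 0.25 (SD, 2 probe sets at -0.14 and 0.22) and SDHC, the other anchor, at -0.05 ± 0.19 (SD, 7 probe sets). The SDHC probe sets split by kind: the 4 with names ending in _s_at or _x_at lay at 0.19, 0.14, 0.06 and -0.03, and the other 3 at -0.21, -0.23 and -0.27. The 4 assembly factors of complex II were more spread out than its subunits. SDHAF1, which helps to insert iron-sulfur clusters, had centred values of 0.16 in control cells and -0.16 with CD24 shRNA, a difference of -0.33 ± 0.08 (SD, 2 probe sets), or 1.25-fold lower. Both of its probe sets lay below 0, at -0.27 and -0.38, and both had a sign of a log2 level below 8. SDHAF4 was at -0.29 and SDHAF2, needed for flavinylation of SDHA, at 0.28, each on 1 probe set, and SDHAF3 was tied.

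Of 7 measured complex III subunits, 5 were below 0 and 2 above (2 below 0 on the hybridisation controls), with a median of -0.08 and none called. UQCRFS1, the Rieske protein, gave no value. UQCRQ, a small accessory subunit, stood highest, with centred values of -0.17 in control cells and 0.17 with CD24 shRNA and a difference of 0.35 (1 probe set), or 1.27-fold higher. The core proteins UQCRC1 and UQCRC2 were at -0.08 (1 probe set) and -0.13 ± 0.11 (SD, 3 probe sets at -0.20, -0.19 and 0.00), and CYC1, cytochrome c1, at -0.03. UQCR11, UQCRB and UQCR10 lay at -0.11, -0.09 and 0.04. Cytochrome c itself, the mobile carrier encoded by CYCS that also takes part in apoptosis, was at -0.04 ± 0.34 (SD, 3 probe sets), with probe sets at 0.16, 0.15 and -0.42, so that 1 probe set opposed the other two.

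Complex IV subunits had the highest median of the 5 complexes, 0.06 over 17 genes, with 11 above 0, 5 below and COX8C tied (0.17 on the hybridisation controls, with 14 above 0). Without COX7C the median was 0.06 too. The 10 widely expressed forms had a median of 0.09. Beside COX7C, several were slightly higher on probe sets that agreed: COX5B at 0.19 ± 0.06 (SD, 4 probe sets), COX5A at 0.17 ± 0.05 (SD, 2 probe sets) and COX4I1 at 0.12 ± 0.02 (SD, 4 probe sets, 0.11 to 0.14), none of them past 1.2-fold. These 3 are among the nuclear-encoded subunits that pack around the catalytic core. COX7B was at 0.25 ± 0.34 (SD, 2 probe sets at 0.01 and 0.49), COX6A1 at 0.06, COX6B1 at 0.01, COX6C at -0.03, COX8A at -0.07 and COX7A2 at -0.12. COX7A2L, which joins complex IV to complex III in supercomplexes, was the lowest, at -0.26 on 1 probe set.

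Isoforms of complex IV subunits were set side by side. COX4I2, the form of subunit 4 used in lung and under low oxygen, was at 0.09 on 1 probe set beside 0.12 for COX4I1. The muscle forms COX6A2 and COX7A1 were at 0.06 and 0.12, beside 0.06 for COX6A1 and -0.12 for COX7A2. COX6B2, a testis form, was at -0.22 beside 0.01 for COX6B1, and COX7B2 was at 0.29 beside 0.25 for COX7B. No isoform pair held a called member. Every restricted form rests on 1 probe set, and a sign of a level below 4 was found for COX7A1 and below 8 for COX6A2 and COX7B2.

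The 8 complex IV assembly factors had a median of -0.05 (0.06 on the hybridisation controls), 4 below and 4 above 0. The enzymes that make haem A lay on opposite sides. COX10, which adds the farnesyl tail, was at 0.29 ± 0.25 (SD, 2 probe sets at 0.11 and 0.47), and COX15, which completes the haem, at -0.24 ± 0.24 (SD, 4 probe sets at -0.03, -0.08, -0.28 and -0.56). The copper proteins COX11, COX19 and COX17 were at -0.14, -0.12 and 0.02, the membrane insertase COX18 at -0.21 ± 0.09 (SD, 2 probe sets), and COX16 and COX14 at 0.02 and 0.09. COX17 rests on 1 probe set with a sign of a log2 level below 4.

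**Figure D3:**
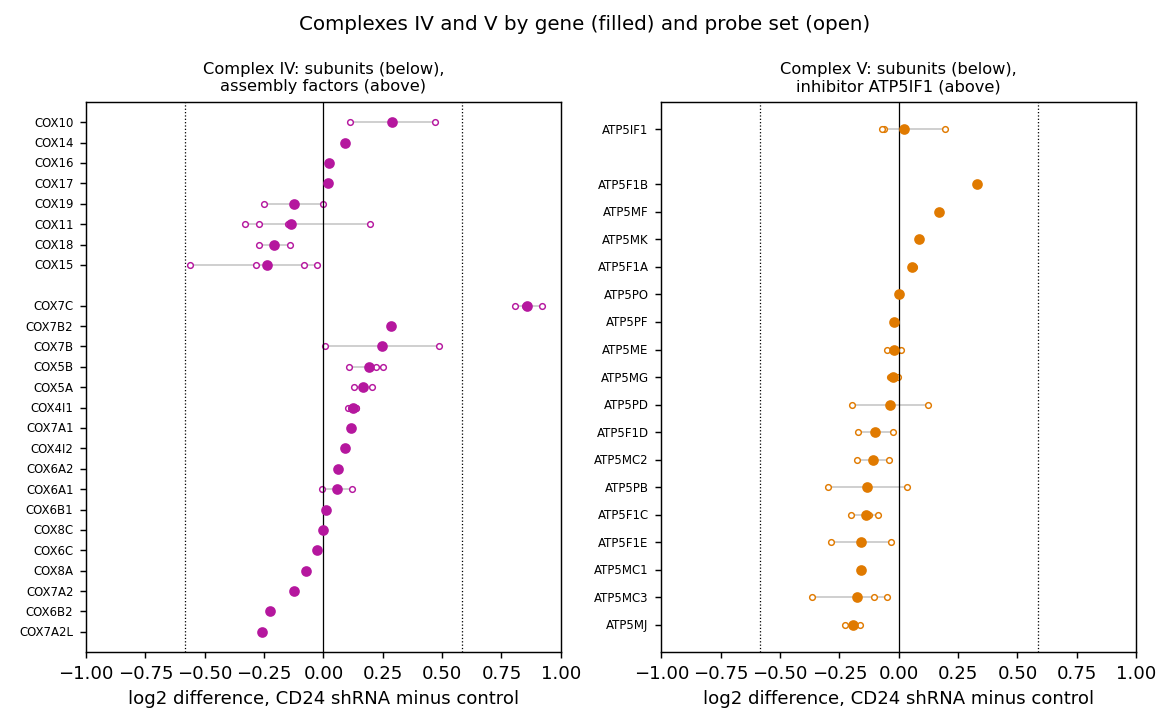
Log2 difference, CD24 shRNA minus control (x axis), of each measured gene of complexes IV and V (y axis), drawn with open circles for probe sets, filled circles for their mean and dotted lines at 1.5-fold. COX7C, at 0.86, lies beyond the dotted line with all 3 probe sets, and the other filled circles run from -0.26 (COX7A2L) to 0.33 (ATP5F1B); on the hybridisation controls all would shift by 0.11 to the right.

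Complex V had 12 of 17 subunits below 0 (70.6%, against 47.5% of all genes) with a median of -0.04. On the hybridisation controls 6 of 17 were below 0, against 5663 of 19775 genes, and the median was 0.07. All 17 but ATP5F1B lay within 0.2 of 0. ATP5F1B, the catalytic beta subunit, had centred values of -0.16 in control cells and 0.16 with CD24 shRNA and a difference of 0.33 (1 probe set), or 1.26-fold higher. The other parts of the F1 head were lower: ATP5F1A, the alpha subunit, at 0.06 ± 0.01 (SD, 2 probe sets), ATP5F1D at -0.10 ± 0.11 (SD, 2 probe sets), ATP5F1C, the central stalk, at -0.14 ± 0.05 (SD, 4 probe sets) and ATP5F1E at -0.16 ± 0.18 (SD, 2 probe sets). The alpha and beta subunits, present in equal number in the enzyme, thus differed by about the pooled SD between probe sets.

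The 3 genes of subunit c, which encode proteins that form the same rotor ring after their import sequences are removed, lay close together at -0.11 ± 0.10 (ATP5MC2, SD, 2 probe sets), -0.16 (ATP5MC1, 1 probe set) and -0.17 ± 0.17 (ATP5MC3, SD, 3 probe sets). On the hybridisation controls ATP5MC2 moved to 0.00, and ATP5MC1 and ATP5MC3 stayed below 0. In the peripheral stalk ATP5PB was at -0.13, ATP5PD at -0.04, ATP5PF at -0.02 and ATP5PO at 0.00, the last with all 3 probe sets at 0.00. Among the small membrane subunits ATP5MJ was the lowest gene of the complex, at -0.19 ± 0.04 (SD, 2 probe sets at -0.16 and -0.23). ATP5MF was at 0.17 on 1 probe set with a sign of a log2 level below 4. ATP5IF1, the inhibitor that stops the enzyme from consuming ATP, was at 0.02 ± 0.15 (SD, 3 probe sets).

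The pooled SD between probe sets of 1 member, 0.21, was no smaller than the SD over members, 0.17. Of 56 members with 2 or more probe sets, 26 had all of them on 1 side of 0 (46.4%, against 39.9% of all such genes), 11 above and 15 below. No member had an SD over 2 times the pooled SD of all genes (0.27), as 3.7% of all such genes did, and 8 members spanned more than 0.5 between their lowest and highest probe set. The digits of the file give a coarse level class, described with the processing. By it 133 of 193 member probe sets showed no sign of a log2 level below 8, 34 a level below 8 and 16 a level below 4, and 8 were tied (4.15%, against 5.53% of all probe sets). Among all probe sets with 1 symbol the share with no sign below 8 was 38.5%, against 68.9% for the members. The SD of the differences was 0.20, 0.31 and 0.35 for the members with no sign of a level below 8, below 8 and below 4, and 0.35, 0.38 and 0.30 for all probe sets in the same order. Of the 9 member probe sets at least 0.5 from 0, COX7C held 3, NDUFS1 and NDUFA10 2 each, and NDUFB2 and COX15 1 each.

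**Figure D4:**
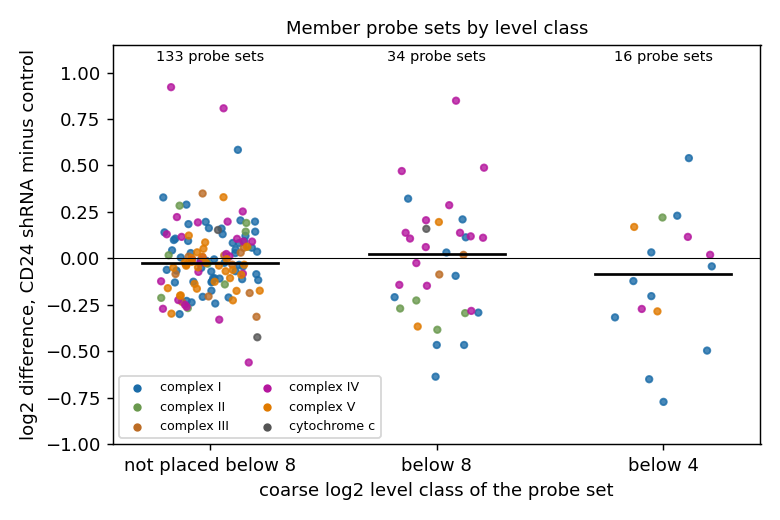
Log2 difference, CD24 shRNA minus control (y axis), of the member probe sets in each coarse log2 level class (x axis), coloured by complex, with black bars at the median; horizontal scatter has no meaning and 10 probe sets without a readable class are left out. The 133 probe sets with no sign of a level below 8 have an SD of 0.20, the 16 placed below 4 an SD of 0.35, and the 3 COX7C probe sets are the highest points, 2 among those with no sign of a level below 8 and 1 among those placed below 8.

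Non-coding loci that share a prefix were read apart. NDUFV1-DT, transcribed away from NDUFV1, was at 0.38 on 1 probe set beside -0.11 for NDUFV1, and COX10-DT at 0.28 beside 0.29 for COX10. The antisense loci NDUFV2-AS1 and NDUFB2-AS1 were at 0.28 ± 0.03 (SD, 2 probe sets) and -0.26, beside 0.08 for NDUFV2 and 0.25 for NDUFB2. The pseudogenes ATP5MC2P1 and COX6A1P1 were at 0.21 and -0.22, beside -0.11 and 0.06 for the genes they resemble. None of the 6 was called, and array probes for a pseudogene may also bind the transcript of its parent gene.

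Other mitochondrial gene lists were read beside the chain. The 7 measured subunits encoded by mitochondrial DNA lay between -0.15 (ATP6) and 0.10 (ND2), with a median of -0.06 (0.05 on the hybridisation controls) and none called. Of 45 assembly factors outside the prefixes, 24 were below 0, and the median was -0.01 (0.10 on the hybridisation controls). Of the 45, 1 was called lower and none higher, where 2.38% and 2.63% of all genes were. The one called was UQCC6, a complex III assembly factor, at -0.63 ± 0.14 (SD, 2 probe sets), and LYRM7, which delivers the Rieske protein to the same complex, was at -0.52 ± 0.13 (SD, 4 probe sets, all below 0). Other complex III assembly factors did not share this direction: UQCC2 was at 0.35, UQCC3 at 0.23 and BCS1L at 0.11. UQCC4, UQCC1, UQCC5 and TTC19 lay at 0.03, 0.02, -0.02 and -0.08. HIGD1A, a hypoxia-inducible protein that associates with complex IV, was the highest at 0.58 ± 0.06 (SD, 3 probe sets from 0.52 to 0.64), just under the threshold, followed by the copper chaperone SCO1 at 0.47 on 1 probe set. On the hybridisation controls UQCC6 moved to -0.52 and HIGD1A to 0.70, so that 0 of the 45 were called lower and 1, HIGD1A, higher.

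Of 25 regulators of mitochondrial biogenesis and mitochondrial DNA expression, 15 were below 0, and the median was -0.04 (0.07 on the hybridisation controls). Of the 25, 1 was called higher, where 2.63% of all genes were, and none lower. GABPB2, a partner of the ETS factor GABPA, was called higher, at 0.62 on 1 probe set with a sign of a level below 8. GABPB1 was at 0.37 ± 0.11 (SD, 2 probe sets, both with a sign of a level below 8). GABPA itself was at -0.04 ± 0.01 (SD, 2 probe sets, both with a sign of a low level). TFAM, which packages and transcribes mitochondrial DNA, was at 0.29 ± 0.23 (SD, 4 probe sets, 3 of them between 0.34 and 0.49). PPARGC1A, the coactivator PGC-1 alpha, was at -0.30 ± 0.30 (SD, 2 probe sets, both with a sign of a low level), NRF1 at -0.10 ± 0.32 (SD, 5 probe sets) and ESRRA at -0.07 ± 0.00 (SD, 2 probe sets). MTERF3, a regulator of mitochondrial transcription and ribosome assembly, was the lowest at -0.45 on 1 probe set.

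Of 16 genes of the citric acid cycle and pyruvate dehydrogenase, 12 were below 0, with a median of -0.10, and none was called. On the hybridisation controls 8 of 16 were below 0, against 5663 of 19775 genes, and the median was 0.01. IDH2 and MDH2 were the lowest, both at -0.30, and SUCLA2, the ATP-forming succinate-CoA ligase, the highest at 0.42 on 1 probe set. Of 21 genes of ubiquinone synthesis and of other enzymes that reduce ubiquinone, 13 were below 0 (median -0.08, or 0.03 on the hybridisation controls). Of the 21, 2 were called lower, where 2.38% of all genes were. These were SQOR, which oxidises sulfide, and COQ10A, a ubiquinone-binding protein, both at -0.69 on 1 probe set. Both calls were lost on the hybridisation controls, where SQOR and COQ10A lay at -0.58, just short of the threshold. COQ7, a hydroxylase of ubiquinone synthesis, was the highest at 0.46 ± 0.10 (SD, 3 probe sets).

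**Figure D5:**
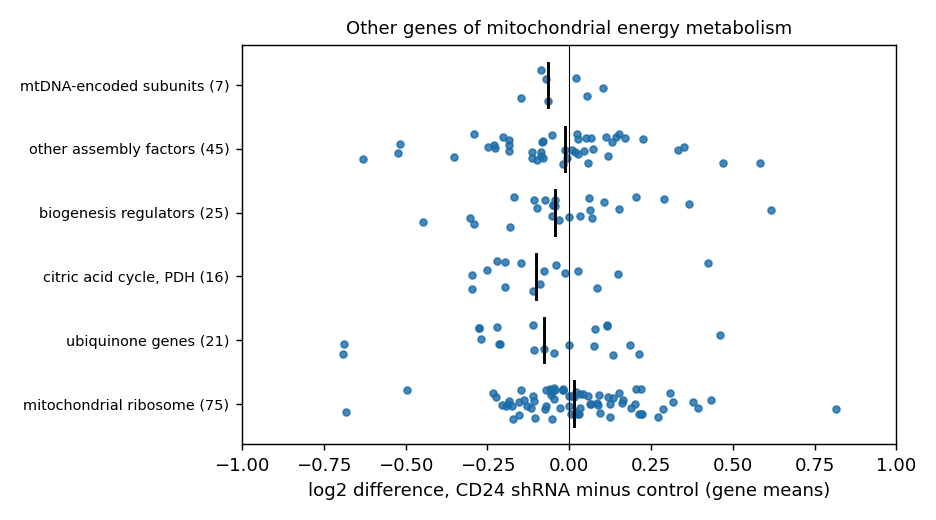
Log2 difference, CD24 shRNA minus control (x axis, gene means), of genes in 6 lists around the respiratory chain (y axis, number of measured genes in brackets), with black bars at the median; vertical scatter has no meaning. Medians lie between -0.10 (citric acid cycle) and 0.01 (mitochondrial ribosome), each moving up by 0.11 on the hybridisation controls. The single genes MRPS6 (0.82), SQOR and COQ10A (both -0.69), MRPS23 (-0.68), UQCC6 (-0.63) and GABPB2 (0.62) stand furthest out.

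Beside the respiratory chain, the mitochondrial ribosomal proteins, which translate its core subunits, had a median of 0.01 over 75 genes, with 33 below 0. Of the 75, 1 was called higher (MRPS6 at 0.82 on 1 probe set), where 2.63% of all genes were. Another 1 was called lower (MRPS23 at -0.68 ± 0.21, SD, 2 probe sets), where 2.38% of all genes were. On the hybridisation controls 16 of the 75 were below 0, and MRPS23 moved to -0.57 and was no longer called, while MRPS6 was. The cytosolic ribosomal proteins, whose probe sets were more often without a sign of a level below 8 (78.7%, against 68.9% for the respiratory chain), had 54 of 61 genes below 0 as deposited, and 34 of 61 on the hybridisation controls, with none called. The respiratory chain had 53 of 99 and 26 of 99 below 0 in the same settings, and all genes 9402 and 5663 of 19775. These are counts on 1 pair of arrays, and no difference between the lists was tested.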

How the data were processed

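The deposited series table held log2 values. Per the submitters' processing notes the method was RMA, which corrects background, applies quantile normalisation and summarises probes; software and later steps were not given in the sources used here. Within that table the authors' 2 values of each of 54675 probe sets sum to 0 within 1.0e-06, so only differences could be used. Probe sets were named through GEO's annotation of the platform, and the Entrez IDs of all 105 prefix matches were found in the gene table of GRCh38.p14, which changed 0 symbols. Gene values are means over probe sets with 1 symbol; control probe sets were left out.

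The coarse level class rests on the number format. Centred single-precision values come in binary steps that become finer below 8 and again below 4 on the log2 scale, so a fine step places the dimmer array below that level; a coarse step proves nothing, and tied probe sets have no class. The reading and the gene means were checked on simulated data.

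Members, classes and lists were chosen with earlier results of these data known. Every member may be named; in full are those past 1.5-fold, the extremes of each class, isoform pairs and genes whose probe sets disagree; outside the members, the extremes of each list and TFAM, NRF1, PPARGC1A and ESRRA. MRPS6, MRPS23, LYRM7, SCO1, GABPB1, NDUFAF7 and other members named with a value, the SDHC split, and the neighbours of COX7C were picked after their values were seen. So were GABPA and the complex III assembly factors named beside UQCC6. Alternatives changed the way probe sets are combined, the probe sets kept, the scaling and the threshold. Calculations used Python 3.11.15, pandas 2.3.3 and numpy 2.4.6. The number of arrays limits the precision.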

Additional observations from a re-analysis of the deposited data

How the results depend on the processing

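COX7C was the 1 member past 1.5-fold upward under every alternative run on gene values (median or largest probe set, without probe sets ending in _s_at or _x_at, without those placed below 4, and both rescalings). With the threshold at 2-fold 0 members were called higher, and at 1.2-fold 6 higher and 4 lower. With the largest probe set per gene, 2 members were called lower, NDUFA10 and NDUFS1. Each call rests on 1 probe set placed below 4, at -0.65 and -0.77 in that order. The share of all genes called in this setting was not counted. Medians were then -0.066 for complex I and -0.16 for complex V subunits. Scaled on the hybridisation controls, 26 members and 5663 of all 19775 genes lay below 0. Medians were 0.10 for complex I subunits, 0.047 for complex I assembly factors, 0.027 for complex III, 0.17 for complex IV subunits, 0.0585 for complex IV assembly factors and 0.073 for complex V subunits, beside 0.11 for all genes. The other medians and counts moved by less than the pooled probe set SD divided by the square root of the number of genes, or by under 1.5 times. Of single members, 7 moved by more than the pooled SD with the largest probe set and 1 (NDUFAF8) without probe sets placed below 4. Leaving out names ending in _s_at or _x_at kept 83 of 99 members. Leaving out COX7C, and the calls of the other gene lists on the hybridisation controls, were chosen after seeing the data. No paired analysis was possible because each group holds 1 array. Without levels no filter on dim genes could be set beyond the coarse level class. Signal over background is unknown for most probe sets.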
